A study of Mus musculus with 82 samples.

Results

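Heat shock proteins and their DnaJ partners were followed through the suprachiasmatic nucleus (SCN) of the mouse hypothalamus, the master circadian clock of the brain. Members were the protein-coding genes whose symbol in the deposited RPKM table begins with Hsp and a letter a, b, d, e or h, or with Dnaj and a letter a, b or c. This gave 71 genes of 27055 in that table, all found by gene ID in the count table of 27515 genes. The tissue came from C57BL/6 mice aged 8 weeks, with no treatment beyond cresyl violet staining of the sections. A grid of hexagons, 40 µm in largest radius, was laid over the nucleus, and 82 hexagons were cut out by laser capture and sequenced one by one with Smart-seq2, which copies whole transcripts from tiny amounts of RNA. The hexagons came from 9 sections, numbered here from the lowest anterior-posterior coordinate (47) to the highest (431), and held 4, 6, 12, 14, 12, 14, 13, 6 and 1 hexagons. The labels also give each hexagon a dorsal-ventral coordinate (301 to 917) and a medial-lateral coordinate (1100 to 1517), without a unit or a named end. Animals, sex and time of collection are not named, so hexagons may share an animal.

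HSP70 proteins bind unfolded stretches of other proteins and release them in a cycle driven by ATP. J proteins, the Dnaj genes, bring clients to HSP70 and start ATP hydrolysis, and nucleotide exchange factors of the HSP110 type reopen the cycle. Small heat shock proteins hold unfolded proteins without ATP, and the HSP60 and HSP10 pair (Hspd1 and Hspe1) forms the folding chamber of mitochondria. Some of these genes are on in every cell, whereas others are switched on by heat shock factor 1 or by the unfolded protein response of the endoplasmic reticulum.

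Libraries held between 11905 and 2843366 counts, with a median of 542267.5. Members took 0.636% to 1.03% of the counts of a library (median 0.804%). The neuron markers Snap25, Gad1 and Gad2 were detected in 82 of 82 hexagons, and the SCN markers Rora and Zfhx3 in 82, Nms in 81, Avp in 80 and Vip in 62. Astrocyte markers such as Slc1a3 (82 hexagons) and oligodendrocyte markers such as Mbp (81) were present too, so a hexagon holds several cell types. In such bulk samples fewer cells of a type and less RNA per cell cannot be told apart. For 28 members an exon overlaps that of another gene, which lies on the opposite strand for 25, and the strand setting of the counting is not given in the sources used here. Counts of Hspd1 and Hspe1 (starts 111 bases apart, with overlapping exons) are uncertain to that extent. So are those of Hspa8, with the small RNA genes Snord14c, Snord14d and Snord14e on its own strand. The same holds for members with processed pseudogenes named after them (Hspd1, Hspe1, Hspa9, Dnaja1 and Dnajc19). Pseudogenes under other symbols were not searched.

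Short promoter stretches are shown for some of the members that carry an element of the heat shock or endoplasmic reticulum stress kind. Carriers include both well-expressed members and members with few counts. Each is read in the direction of its gene from RefSeq (GRCm38.p6), with motif matches in capitals. In the 250 bases before a RefSeq start, 59 member genes could be searched through 76 promoters, and 32851 promoters of all genes served for comparison. The 3-unit heat shock element is GAA, TTC and GAA again with 2 bases between neighbours, searched on both strands. It was found in 0.466% of all promoters and in 4 of 76 member promoters, which belong to Dnajb6, Hspd1 and Hspe1.
Hspe1 (chr1:55088053-55088082, plus strand, in an exon of Hspd1 on the other strand): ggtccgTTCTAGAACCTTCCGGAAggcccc
Dnajb6 (chr5:29735843-29735872, plus strand, in an exon of Dnajb6 and, on the other strand, of Gm5129): cagctccgaGAATCTTCCGGAAcgctagac
Hspa1a (chr17:34972242-34972271, minus strand, in no annotated gene): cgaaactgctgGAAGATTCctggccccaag
Hspa1b (chr17:34959324-34959353, minus strand, in no annotated gene): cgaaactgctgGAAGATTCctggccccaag
Hspb1 (chr5:135887801-135887830, plus strand, in no annotated gene): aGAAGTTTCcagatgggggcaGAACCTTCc
Dnaja1 (chr4:40722333-40722362, plus strand, in an exon of Dnaja1 and, on the other strand, of Gm6297): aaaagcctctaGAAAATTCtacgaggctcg
Hsph1 (chr5:149636351-149636380, minus strand, in an exon of Hsph1): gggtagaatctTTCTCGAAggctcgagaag
Hspa5 (chr2:34772019-34772048, plus strand, in an exon of Hspa5): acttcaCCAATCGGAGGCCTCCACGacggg
Dnajc3 (chr14:118937821-118937850, plus strand, in no annotated gene): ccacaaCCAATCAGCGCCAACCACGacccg

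Annotation of these stretches is that of GENCODE M21. In the Hspe1 stretch the capitals hold 2 overlapping matches of the 3-unit element, on opposite strands. The shorter element GAANNTTC, marked in Hspa1a, Hspa1b, Hspb1 and Dnaja1, was in 6.69% of all promoters. It was in 12 of 76 member promoters, of 11 genes. TTCNNGAA, marked in Hsph1, was in 7.17% of all promoters and in 8 of 76 member promoters, of 6 genes. Each 3-unit match contains both short forms. Hspd1 and Hspe1 share the same stretch, which counts for both. The capitals in Hspa5 and Dnajc3 are the endoplasmic reticulum stress element (CCAAT, 9 bases of any kind, CCACG), searched on both strands. It was found in 0.113% of all promoters and in 2 of 76 member promoters. These are matches of letters in a window, not measured binding. The stretches of Hspa1a and Hspa1b are identical, and the genes themselves are near-identical copies 12918 bases apart. Their counts may therefore have been divided between them, or reads matching both may not have been counted.

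Levels are given first in RPKM, which corrects for gene length and so allows genes to be compared. Among cytosolic HSP70 genes, Hspa8, the constitutive HSC70 (chr9:40800984-40810087 on GRCm38, plus strand), stood highest of all members with a median of 527 RPKM over 82 hexagons (lowest 117, highest 865). The HSP110 exchange factors followed at medians of 48.1 RPKM for Hsph1 (26.7 to 81), 21.6 RPKM for Hspa4 (4.58 to 43.9) and 15 RPKM for Hspa4l (1.88 to 171). The lowest Hspa8 value rests on 6 counts in the shallowest library, which held 11905 counts. The highest Hspa4l value came from that library too, so both ends are uncertain. Hspa14, which acts on ribosomes with Dnajc2, had a median of 9.39 RPKM. Hspa2, best known from male germ cells, had a median of 3.86 RPKM and was detected in 72 hexagons. The divergent HSP70 relatives lay at a median of 14.7 RPKM for Hspa12a and 0.330 RPKM for Hspa12b.

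The classical heat-inducible HSP70 genes had few counts, in contrast to Hspa8. How reads that match both Hspa1a and Hspa1b were counted is not given, so their levels may be understated. Hspa1a had 58 counts in all, spread over 16 of 82 hexagons with at most 7 in one hexagon, and Hspa1b had 25 counts in 8 hexagons. Their neighbour Hspa1l had 65 counts in 12 hexagons. Hspa1a reached its highest level, 13.9 CPM (counts scaled to library size) from 7 counts, in replicate 11 of section 5. Hspa1b reached 32.3 CPM in replicate 4 of section 4, from 1 count in the shallowest library, and the largest count, 10, lay in replicate 2 of section 3. Only replicate 4 of section 3 and replicate 6 of section 7 held counts of both. Counts this low show no pattern over the nucleus at this depth.

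The 7 small heat shock proteins listed here, all with Hspb symbols, were low, and 2 of 7 passed the filter for testing. Small heat shock proteins with other symbols fall outside the rule for members and were not examined. Hspb8, a partner of the co-chaperone Bag3 in selective autophagy, had a median of 8.47 RPKM and ranged widely, with a lowest value of 0 and a highest of 103. Hspb6 had a median of 3.22 RPKM (0 to 24.6). Hspb1, the heat-inducible HSP25 of mice, had 271 counts in 49 hexagons and a median of 3.26 RPKM. The other members were sparse, with 27 counts for Hspb7, 11 for Hspb3, 7 for Hspb2 and 1 for Hspb9.

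All 9 members listed here for the endoplasmic reticulum were tested. Hspa5, the HSP70 known as BiP that governs the unfolded protein response, had the second highest median of all members at 132 RPKM (79.9 to 276). Its J protein partners spanned Dnajb9 at 47.7 RPKM, Dnajc10, a reductase of misfolded proteins, at 26.1, Dnajc3 at 20.3 and Dnajb11 at 14.9 RPKM. Hspa13, a shortened HSP70 of microsomes, had a median of 34.9 RPKM. Dnajb14 (6.53), Dnajb12 (5.34) and Dnajc1 (2.40 RPKM) were lower.

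The mitochondrial members were led by the chamber pair, Hspe1 at 79.7 RPKM (38.4 to 139) and Hspd1 at 68.1 RPKM (0 to 116). Hspa9, the HSP70 of the matrix, had a median of 45.3 RPKM and its J protein Dnaja3 one of 19.2 RPKM. Dnajc19 and Dnajc15, of the import motor, lay at 12.4 and 10.6 RPKM, Dnajc30 at 9.02 and Dnajc11, of the cristae junctions, at 3.92 RPKM. Although Hspd1 and Hspe1 share a promoter region, their levels across hexagons were only weakly related once section means were removed (Spearman's rho = 0.129, 81 hexagons that share library depth and possibly animals).

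J proteins of the synapse stood near the top. Dnajc6, the neuronal auxilin that strips clathrin from vesicles (chr4:101496648-101642799, plus strand), had a median of 55.2 RPKM (14.2 to 97.3). Dnajc5, the cysteine string protein of synaptic vesicles, had one of 48.3 RPKM (21.9 to 88.4), whereas Dnajc13 of endosomes lay at 6.00. The relatives of Dnajc5 known from testis were missing or nearly so, with 1 count for Dnajc5b and 0 counts for Dnajc5g, where a count of 0 allows up to 3 counts, or 0.0492 CPM over all libraries together (counting error only).

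The 8 cytosolic class A and B J proteins listed here were all tested. Dnajb3 and the sparse Dnajb7, Dnajb8 and Dnajb13 are not in this list and are given below. Dnaja2 (54.1 RPKM) and Dnaja1 (33.0), general partners of HSC70, and Dnajb1 (35), the heat-inducible HSP40, stood above Dnajb2 (25.6), a client-sorting J protein of neurons, and Dnajb6 (22.5), which suppresses aggregation. Dnajb4 (11.7), Dnajb5 (5.35) and Dnaja4 (2.41 RPKM) were lower. Among J proteins of the nucleus and ribosome, Dnajc8 of the spliceosome had a median of 48.2 RPKM, the histone co-chaperone Dnajc9 21.6 and Dnajc2 5.43 RPKM. Dnajc7, put in the same hand-made list without evidence here for that place, had 16.1 RPKM. Dnajc17 lay at 10.1 and Dnajc21 at 2.34 RPKM.

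Members outside these groups were led by Dnajc18 at a median of 45.4 RPKM, Dnajc27 at 30.8 and Hspbp1 at 25.8 RPKM. Dnajc12, a partner of the enzymes that hydroxylate aromatic amino acids, had 15 RPKM. Dnajc24 (8.54), Hspb11, a protein of cilia (8.12), Dnajc4 (7.81), Dnajc16 (6.88), Dnajc28 (5.68), Dnajc14 (5.02), Dnajb3 (3.63) and Hspbap1 (1.87 RPKM) were lower. In total 55 of 71 members reached 10 counts in at least 10 libraries and were tested, and 16 were too sparse. Those not yet named were Dnajc25, with 190 counts in 34 hexagons, Dnajb13, an axonemal protein, with 125 counts in 15 hexagons, Dnajb7 with 22 counts in 4, Dnajb8 with 19 counts in 6, and Dnajc22 with 13 counts in 1 hexagon.

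**Figure D1:**
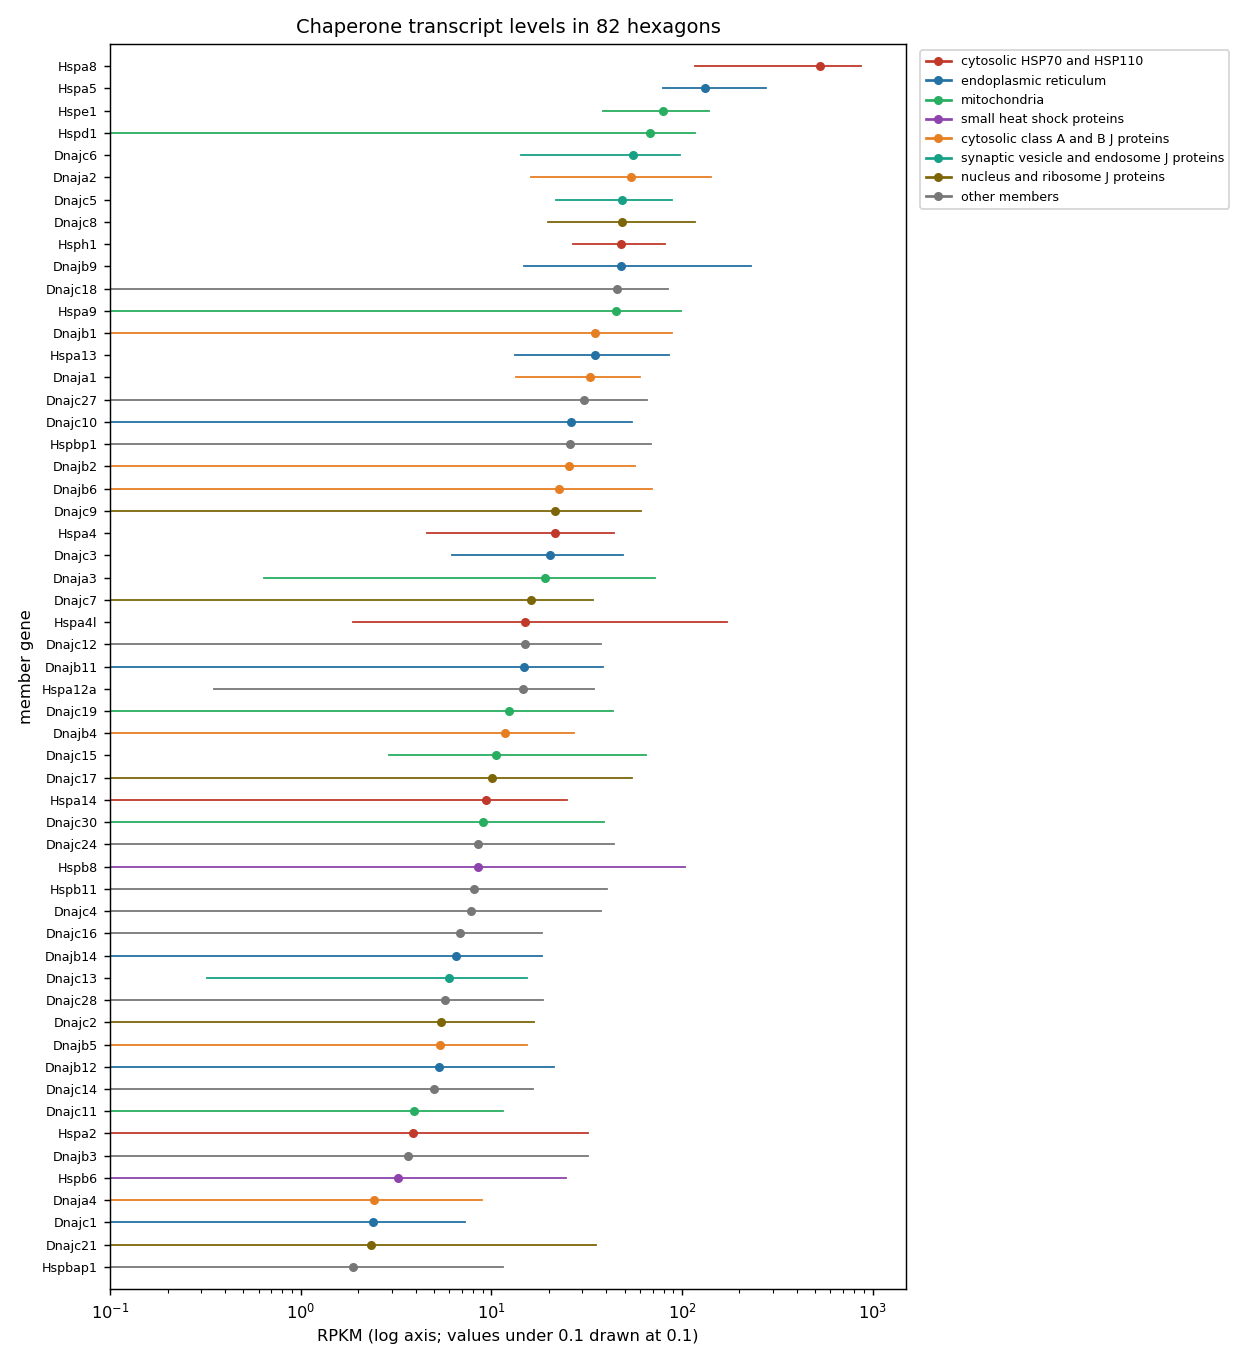
Median (point) and range from the lowest to the highest of 82 hexagons (line) of the 55 tested members, in RPKM on a log axis, coloured by hand-made role list and ordered by the median. Hspa8 stands highest at a median of 527 RPKM, followed by Hspa5 at 132 RPKM, and lines that reach the left edge belong to genes with a value below 0.1 in some hexagon. Some line ends, such as the lowest of Hspa8 and the highest of Hspa4l, come from the shallowest library.

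Within sections, no tested member passed the test along either coordinate. Slopes are log2 changes per 100 coordinate units from edgeR's quasi-likelihood test, with section as a factor, Benjamini-Hochberg adjustment over 11469 tested genes and a threshold of 0.05. Since hexagons may share an animal, p-values over hexagons are too small, here and in each test over hexagons that follows. Along the dorsal-ventral coordinate 0 of 55 members passed, where 0.793% of all tested genes did, and 2 members had an unadjusted p under 0.05, against 970 of all genes. DESeq2 called no member on this axis either. The median slope of members was -0.01, against 0.00 for all tested genes.

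Hspa14 lay nearest to the threshold on this axis. It had a mean of 44.5 ± 25.3 CPM (SD, n = 27) in hexagons at 301 to 578, 40.8 ± 22.7 CPM (n = 28) at 579 to 739, and 32.3 ± 18.7 CPM (n = 27) at 743 to 917. The groups overlapped over most of their range, and the slope was -0.15 (SE 0.07, edgeR adjusted p = 0.535). Dnajc8, next in order, had a slope of 0.07 (SE 0.04, edgeR adjusted p = 0.579). For the 20 members with the highest mean CPM, slopes lay between -0.05 and 0.07, and their 95% intervals between -0.14 and 0.15.

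Along the medial-lateral coordinate 0 of 55 members passed, where 1.38% of all tested genes did. An unadjusted p under 0.05 was found for 3 members (Dnajc6, Dnajb1 and Dnajc10), against 1342 of all genes, and DESeq2 called 1 member, Dnajc6. The members' median slope was -0.00, the same as that of all tested genes to that precision. Among the 20 members with the highest mean CPM, slopes lay between -0.13 and 0.15, with 95% intervals between -0.26 and 0.23.

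Dnajc6 came closest. It averaged 279 ± 102 CPM (SD, n = 27) at coordinates of 1100 to 1228, 361 ± 68.8 CPM (n = 28) at 1236 to 1342 and 364 ± 98.1 CPM (n = 27) at 1348 to 1517. The lowest hexagon of the first group, at 32.3 CPM, is a single count in the shallowest library. The slope was 0.15 (SE 0.04, edgeR adjusted p = 0.0608) and positive in 7 of 8 sections. It passed in 4 of 15 alternatives, with adjusted p-values over all of them between 0.0263 and 0.257. Within sections its rank correlation with summed neuron markers was 0.374, and that with summed SCN neuron markers -0.281, over 81 hexagons (a description); the part of cell makeup in its slope was not tested.

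Dnajb1 ran the other way. Its means were 139 ± 63.4 CPM (n = 27), 113 ± 33.6 CPM (n = 28) and 96.8 ± 43.8 CPM (n = 27) in the low, middle and high groups of the same coordinate (SD throughout). The slope was -0.18 (SE 0.06, edgeR adjusted p = 0.154). It was negative in 5 of 8 sections, so the direction was not shared by all of them.

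**Figure D2:**
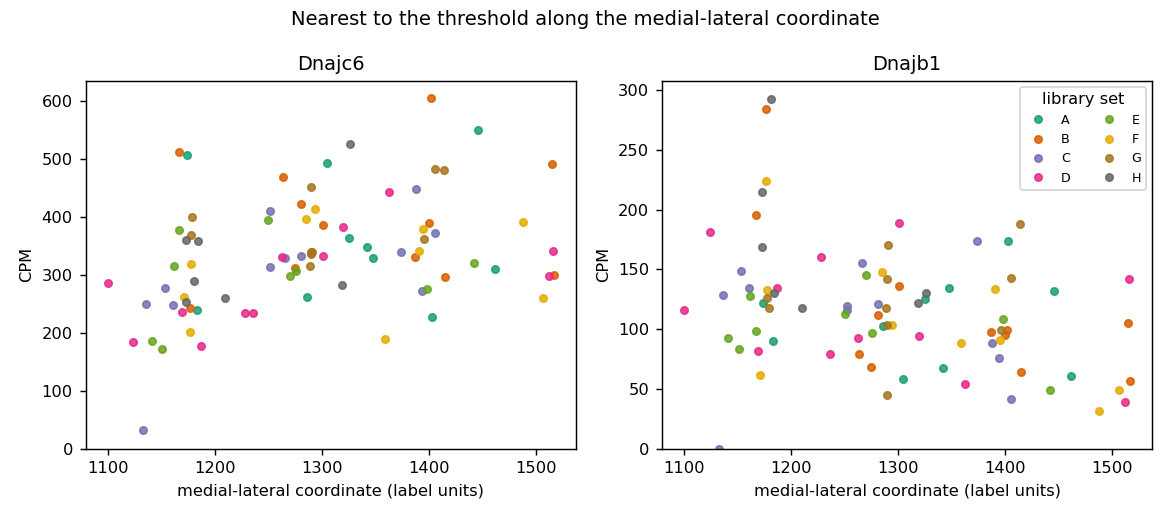
CPM of Dnajc6 (left) and Dnajb1 (right) in each hexagon against its medial-lateral coordinate, coloured by library set. Dnajc6 averaged 279 CPM in the low group and 364 CPM in the high group of hexagons, Dnajb1 139 and 96.8 CPM, and neither slope passed the threshold.

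A test of 5 position terms together (both coordinates, their squares and their product), which can also detect a peak or a trough inside a section, called 0 of 55 members, where 2.03% of all tested genes were called. The nearest was again Dnajc6 (edgeR adjusted p = 0.123), and 5 members had an unadjusted p under 0.05, against 1227 of all genes. Of the others, Hspa4, Dnajb4 and Dnajc8 had edgeR adjusted p-values of 0.218, 0.246 and 0.432. DESeq2 called no member here.

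Along the anterior-posterior coordinate the section is the unit, and counts were summed over the hexagons of each of the 8 sections with 4 or more. No member of 55 passed, where 0.244% of all tested genes did. Unadjusted p-values under 0.05 were found for 12 members, against 1912 of all genes, and DESeq2 called 2 members, Hspa8 and Hspb8. The members' median slope was 0.03, against 0.01 for all tested genes. Library sets, as read from the labels (below), follow the order of sections, and section 8 is wholly set H. Slopes along this coordinate therefore cannot be told apart from differences between sets.

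Hspa8 had section sums of 1884, 2363, 2057, 1999, 2071, 2542, 2855 and 3332 CPM in sections 1 to 8. Sections 1 to 5 lay between 1884 and 2363 CPM, and each of sections 6, 7 and 8 lay above them. The slope was 0.20 (SE 0.05, edgeR adjusted p = 0.0765). Without section 8 it was 0.15 (edgeR adjusted p = 0.198). A fit over hexagons, with both other coordinates but no section term, gave 0.18 (edgeR adjusted p = 0.00506). That fit treats hexagons of a section as replicates of its coordinate, so its p-value is too small.

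Hspb8 had 11.5, 21.1, 13.2, 11.8, 18.7, 22.5, 34.1 and 65.6 CPM in the same sums. Section 8 was the highest, and there a single hexagon had 203 CPM while the median was 34.8 CPM. Its slope of 0.61 (SE 0.14, edgeR adjusted p = 0.0704) was 0.40 without section 8 (edgeR adjusted p = 0.252). Dnajc21, which acts in ribosome biogenesis, had 18.4, 29.7, 17.4, 13.3, 12.8, 10.2, 9.11 and 9.48 CPM. Its slope was -0.46 (SE 0.15, edgeR adjusted p = 0.154).

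Among 10 members listed as heat-inducible, 7 were tested and 0 passed along this coordinate. Of the 7, 6 had an unadjusted p under 0.05, against 1912 of 11469 tested genes, of which 0.244% passed with adjustment. Slopes were 0.20 for Hspa8, 0.15 for Dnaja1, Hspe1 and Dnajb1, 0.11 for Hsph1, 0.00 for Hspd1 and -0.15 for Hspa4l. The list was chosen with results of these data known, Hspa8 and Dnaja1 are also abundant without heat, and the inducible Hspa1a, Hspa1b and Hspb1 were not tested for want of counts.

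**Figure D3:**
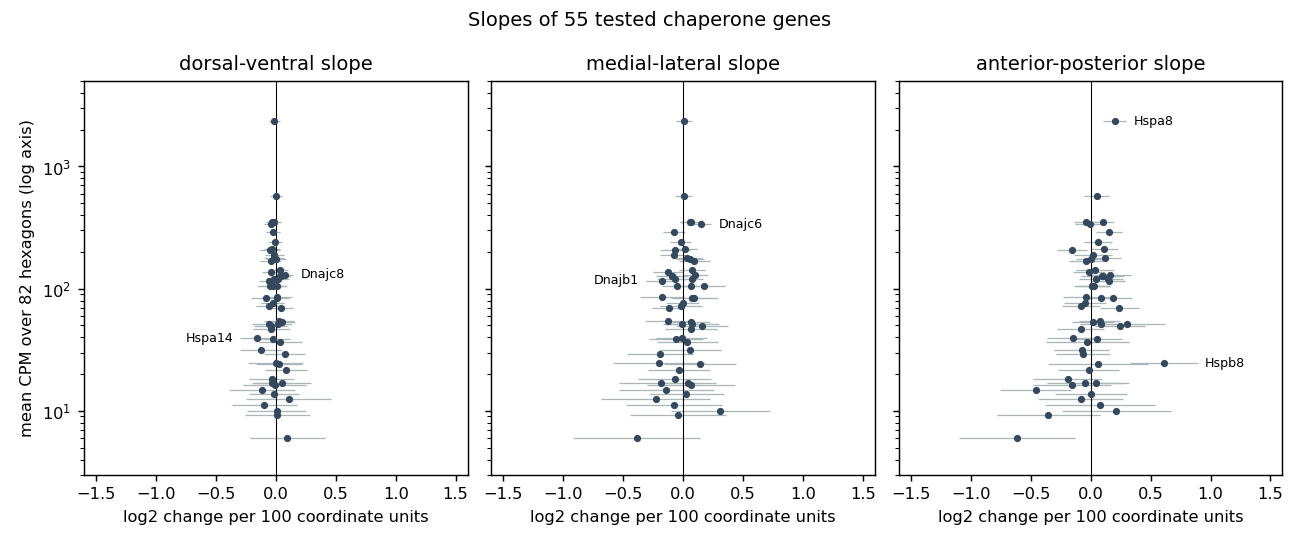
Slope (log2 change per 100 coordinate units, point) with its 95% interval (line) of the 55 tested members along each coordinate, against mean CPM on a log axis, with the 2 members of lowest p named. Slopes of the 20 members with the highest mean CPM lie between -0.05 and 0.07 on the dorsal-ventral and between -0.13 and 0.15 on the medial-lateral coordinate. On the anterior-posterior coordinate they lie between -0.15 and 0.20, with Hspa8 at 0.20.

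Any difference between sections, not only a slope, was tested over the 81 hexagons of sections 1 to 8 with both other coordinates in the model. Hspa8, Hspbp1 and Dnajb6 differed between sections, 3 of 55 members, where 4.1% of all tested genes did, so the share of members was near that of all genes. Unadjusted p-values under 0.05 were found for 9 members, against 1751 of all genes. Dnajc8 and Hspa9 came next, with edgeR adjusted p-values of 0.0688 and 0.0748.

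Hspa8 averaged 1988 ± 339 CPM (SD, n = 4) in section 1, 2393 ± 336 (n = 6) in section 2, 2129.7 ± 268 (n = 12) in section 3, 1892 ± 601 (n = 14) in section 4, and 2049 ± 271 CPM in the 12 hexagons of section 5. It averaged 2475 ± 231 CPM (n = 14) in section 6, 2749.6 ± 488 (n = 13) in section 7, with 3115 ± 663 CPM in the 6 hexagons of section 8. The 1 hexagon of section 9 had 3382 CPM. The lowest hexagon of section 6 had 2134 CPM, whereas sections 4 and 5 had medians of 1953 and 2014 CPM, and ranges of neighbouring sections overlapped (edgeR adjusted p = 0.0028 over all sections).

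Hspbp1, a nucleotide exchange factor of HSP70 (chr7:4660521-4685068, minus strand), was lower in sections 1, 2 and 8 than in sections 3 to 7. Its means were 21.2 ± 13.3 CPM (SD, n = 4) in section 1, 22.4 ± 12.5 (n = 6) in section 2, 50.2 ± 21.2 (n = 12) in section 3, with 47.0 ± 25.8 CPM in the 14 hexagons of section 4. They were 57.6 ± 20.3 CPM (n = 12) in section 5, 72.2 ± 28.7 (n = 14) in section 6, 59.8 ± 26.8 (n = 13) in section 7, with 28.3 ± 16 CPM in the 6 hexagons of section 8. The 1 hexagon of section 9, outside the test, had 53.8 CPM. No hexagon of sections 1, 2 or 8 exceeded 44.6 CPM, and each of the 5 sections between them had a hexagon at 81.4 CPM or more (edgeR adjusted p = 0.0116 over all sections). Without section 2 its adjusted p was 0.073, and without section 6 it was 0.0913.

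Dnajb6 (chr5:29735688-29818134, plus strand) averaged 183 ± 29.9 CPM (SD, n = 4) in section 1, 125 ± 29.5 (n = 6) in section 2, 131 ± 30.7 (n = 12) in section 3, with 102 ± 45.0 CPM in the 14 hexagons of section 4. Further on it averaged 124 ± 37.9 CPM (n = 12) in section 5, 164 ± 37.0 (n = 14) in section 6, 181 ± 83.3 (n = 13) in section 7, with 155 ± 60.7 CPM in the 6 hexagons of section 8. The 1 hexagon of section 9 had 165 CPM. Levels were lowest in section 4 and highest in sections 1 and 7, with 1 hexagon of section 7 at 410.2 CPM. The edgeR adjusted p of 0.0466 was close to the threshold, and the call was kept in 6 of 15 alternatives.

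**Figure D4:**
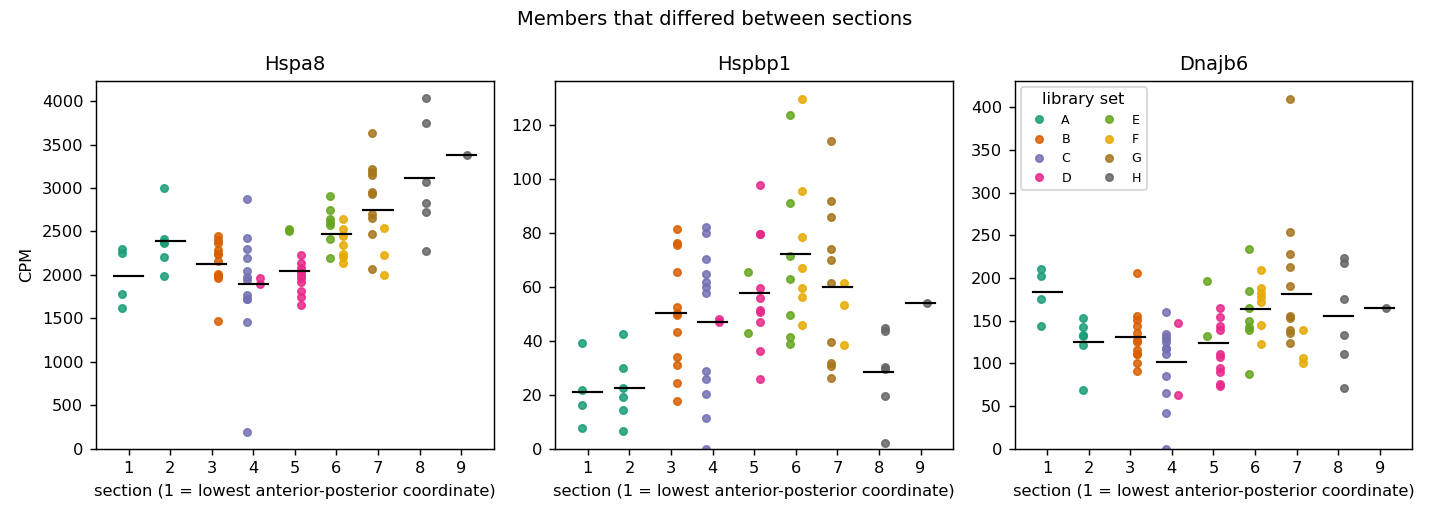
CPM of Hspa8, Hspbp1 and Dnajb6 in each hexagon by section, coloured by library set, with the section mean as a bar. Hspa8 averages 3115 CPM in section 8, against 2049 CPM in section 5, Hspbp1 is lowest in sections 1, 2 and 8, and the colours show that sections and library sets largely coincide.

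A leading letter (A to H) in the description labels was read here as a library set, and the sets follow the sections. With library set as a further factor 0 of 55 members passed between sections, where 0.0% of all tested genes did, and edgeR adjusted p-values of Hspa8, Hspbp1 and Dnajb6 were 1 (unadjusted p = 0.768, 0.813 and 0.275). Conversely, library set tested within sections called 0 of 55 members, where 0.0262% of all genes were called, with an unadjusted edgeR p of 0.22 for Hspa8. For these 3 genes section and library set therefore cannot be told apart. The same holds for slopes along the anterior-posterior coordinate, whose order the sets follow.

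Hspa8 levels were also laid out by section and set together. In section 5 the 10 hexagons of set D averaged 1956 ± 177 CPM (SD) and the 2 of set E had 2509 and 2526 CPM. In section 7 the 10 hexagons of set G averaged 2898 ± 442 CPM and the 3 of set F 2256 ± 268 CPM. Across neighbouring sections of one set the means were 1933 and 1956 CPM in set D (sections 4 and 5), 2517 and 2586 CPM in set E (sections 5 and 6) and 2365 and 2256 CPM in set F (sections 6 and 7). In set A section 1 averaged 1988 and section 2 2393 CPM, and within section 4 sets C and D averaged 1885 and 1933 CPM. These are means of 2 to 12 hexagons with no test of their own. Sets within a section also differed in position. In section 5 set D lay at medial-lateral coordinates of 1100 to 1363 and set E at 1398 and 1442. In section 7 set F lay at 1171 to 1178 and set G at 1178 to 1414. Depth differed there too, with 176618 to 558058 counts in set F and 500432 to 2843366 in set G. The parts of position and depth in these means were not tested.

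Levels of cell type markers also differed between sections. Marker genes taken singly were in the same edgeR test, which cannot tell section from library set. It called 6 of 8 astrocyte, 3 of 8 SCN neuron, 2 of 7 neuron and 1 of 8 oligodendrocyte markers, where 4.1% of all tested genes were called. Of 3 tested meningeal fibroblast markers 2 were called, and none of the microglia, endothelial and mural, or erythrocyte markers. The summed levels that follow are values only, with no test. Summed levels of the 7 neuron markers averaged from 3259.6 CPM in section 4 to 3964 CPM in section 7 over sections 1 to 8, and of the 8 astrocyte markers from 2761 CPM in section 5 to 4882 CPM in section 1. The 8 SCN neuron markers averaged from 1371 CPM in section 3 to 6599.7 CPM in section 6, with medians of 1292 and 4374 CPM. Section 6 also had the highest mean of Hspbp1, whose rank correlation with these markers within sections was -0.07. The 8 oligodendrocyte markers had medians from 667 CPM in section 2 to 2168 CPM in section 7 over sections 1 to 8. Their mean was highest in section 3, at 4426 CPM, where the median was 879 CPM and 1 hexagon reached 22765 CPM. In section 8, where Hspa8 was highest, neuron markers averaged 3399 CPM and astrocyte markers 4496 CPM. Hspa8 had the highest rank correlation of any member with summed neuron markers within sections (0.536 over 81 hexagons that share depth and sections, a description). With summed SCN neuron markers its correlation was -0.151, and with summed astrocyte markers -0.081. The part of these markers in the section differences was not tested.

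The spread from hexagon to hexagon was set against the trend for genes of similar level. Of 55 members 12 (21.8%) had a gene-wise dispersion above the trend over all genes, against 42.9% of all tested genes (a description, with no test). The biological coefficient of variation was 0.211 for Hspa8, where the trend at its level was 0.317, 0.242 for Hspa5 (trend 0.332) and 0.258 for Hspe1 (trend 0.426). Of members with a mean of 20 CPM or more, those farthest above the trend were Hspb8 (1.13, trend 0.872), Dnaja3 (0.571, trend 0.493), Dnajb4 (0.497, trend 0.451), Hspa12a (0.528, trend 0.489), Dnajc27, which carries a small GTPase domain (0.413, trend 0.387), and Hspa4l (0.388, trend 0.373).

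As a further description, rank correlations of section-adjusted log2(CPM + 1) were computed over 81 hexagons, which share depth and possibly animals. Pairs of members had a median correlation of 0.05 (lowest -0.35, highest 0.42), against 0.04 for pairs of all genes detected in enough hexagons. The medians lay close together. For Hspb8, Dnaja3 and Dnajb4 the genes with the highest correlation were picked from 11042. How high such picks run by chance was not tested, so they are no sign of a shared role. For Hspb8 they were Nosip (0.448), Trmt2b (0.429), Crip2 (0.414), Kit (0.403) and Frmpd4 (0.399). For Dnaja3 they were Hdhd2 (0.425), Sv2c (0.410), Araf (0.393), Ap3m2 (0.392) and Lonrf2 (0.387), and for Dnajb4 Fbxo41 (0.466), Necap1 (0.446), Ywhah (0.440), Rnps1 (0.430) and Ndufa2 (0.417). Dnajc7, whose exons overlap the oligodendrocyte gene Cnp, had a correlation of 0.358 with summed oligodendrocyte markers, Cnp among them.

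The wider folding machinery was examined through a list chosen with results of these data known. Of 54 listed genes (HSP90 and its co-chaperones, HSP70 exchange factors, heat shock factors, the CCT chaperonin and the folding and stress genes of the endoplasmic reticulum) 51 were tested. None passed along the dorsal-ventral, medial-lateral or anterior-posterior coordinate or in the 5-term test, where 0.793%, 1.38%, 0.244% and 2.03% of all tested genes did. Between sections 1 of 51 passed, where 4.1% of all tested genes did. It was Cct5, a subunit of the CCT chaperonin (edgeR adjusted p = 0.036). Hsp90ab1, the constitutive cytosolic HSP90, had a median of 538 RPKM, as high as Hspa8, with Hsp90aa1 at 267 and Hsp90b1, its endoplasmic reticulum form, at 154 RPKM. The regulator Hsf1, which drives heat shock genes, had a median of 6.46 RPKM, and its negative regulator Hsbp1 one of 151 RPKM. Bag3, the partner of Hspb8, had 2.02 RPKM, and Ddit3, a late marker of endoplasmic reticulum stress, 7.34 RPKM, against 73.9 RPKM for the stress-regulated transcription factor Xbp1.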

How the data were processed

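Laser-captured hexagons of the SCN were analysed from a deposited table of whole-number counts per gene and a deposited RPKM table, both made by the authors. The deposited RPKM values equal the counts divided by gene length and library total, to a relative deviation of 5.2e-15. The gene length is the deposited value, another quantity listed per gene by the authors. Of upstream tools, bcl2fastq 2 and STAR are listed in the submitters' processing notes, beside the build GRCm38. How reads were counted, and with which strand setting, is not given in the sources used here.

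Genes reaching 10 counts in at least 10 libraries were tested with edgeR 4.0.16 in R 4.3.3 (TMM scaling, robust quasi-likelihood, Benjamini-Hochberg over 11469 genes). DESeq2 1.42.0 was an alternative. CPM values use TMM-adjusted library sizes. Section 9, with a single hexagon, adds nothing to slopes within sections and entered neither the anterior-posterior fit nor the test between sections. Symbols and roles came from the RPKM table and hand-made lists, positions from GENCODE M21. Members, lists and the tests were chosen with earlier results of these data known. Members named were those called, the 20 with the highest mean CPM, the 6 with the highest dispersion over the trend, the nearest on each slope and up to 4 per role, and some others by role. Reading the first letter of the description label as a library set is an inference. Scripts were tested on simulated counts. Nothing says which hexagons came from separate animals, so p-values measure the spread between hexagons, which may be technical.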

Additional observations from a re-analysis of the deposited data

Results flagged for a closer look

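In sections with 4 to 10 hexagons (sections 1, 2 and 8) a member's highest or lowest hexagon was singled out where its gap to the next was large against the section's range (Dixon's 95% limit). Of 93 such tests on 31 members, 6 met the limit, and chance flags about 1 in 20. In section 2, replicate 4 had the highest Hspa5 level, 1191 CPM against 475 to 679 CPM in the other 5 hexagons, and also the highest Dnajc10 level, 229.5 CPM against 93.2 to 134 CPM. Both genes encode chaperones of the endoplasmic reticulum, and the library held 685680 counts. In the same section Dnajc13 reached 170.4 CPM in replicate 1 (52.2 to 95.3 CPM in the others) and Dnajc2 83.2 CPM in replicate 6 (10.4 to 33.0 CPM). In section 8, Dnajb9 reached 169 CPM in replicate 1, against 91.2 to 117 CPM. In section 1, Hspa5 was lowest in replicate 4 at 483 CPM, against 618 to 643 CPM in the other 3. None of these libraries was among the 5 of low depth.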

How the results depend on the processing

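No paired analysis was possible because replicate numbers only name hexagons in accession order and pair nothing across sections. Counts of called members were within 1.5 times the main count except in the following settings, and the cause was not tested. DESeq2 called 1 member along the medial-lateral and 2 along the anterior-posterior coordinate. Without a filter on low counts the members called were 3 (medial-lateral), 2 (anterior-posterior), 7 (5-term test) and 13 (between sections), most of the added ones with a few counts in few hexagons. The medial-lateral count was 1 with genes detected as a covariate and 1 with scaling by library size only. The anterior-posterior count was 1 over hexagons, a fit that takes hexagons of a section as replicates. The count between sections was 0 with library set as a factor (an alternative chosen after seeing the data). Without each section in turn, members called between sections numbered 2 to 3, and those on each slope and in the 5-term test 0. Hspa8 kept its call between sections in 14 of 15 alternatives and Hspbp1 in 12 of 15. Dnajb6 lost its call with RLE (0.0875) or library-size scaling (0.073), with library set as a factor, and without section 1, 3, 4, 5, 6 or 7 (0.0538 to 0.187). The slopes compared across alternatives, those of Hspa8, Hspb8, Hspe1, Hspa4l, Dnaja1, Dnajc12 and Dnajc21 (anterior-posterior), Dnajc6 and Dnajb1 (medial-lateral) and Hspa14 and Dnajc8 (dorsal-ventral), kept their sign. Signs of other slopes were not compared.

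For all tested genes, DESeq2 called 152 (dorsal-ventral), 346 (medial-lateral), 446 (anterior-posterior), 387 (5-term) and 877 (between sections), against 91, 158, 28, 233 and 470 with edgeR. Without a filter the counts were 799, 912, 106, 3538 and 4633. Leaving out a section gave 44 to 137, 31 to 186, 1 to 85, 81 to 265 and 286 to 510. With library set as a factor the medial-lateral count was 14, that of the 5-term test 140 and that between sections 0. Over hexagons, with those of a section taken as replicates, 337 passed along the anterior-posterior coordinate. Median RPKM of the 20 members with the highest mean CPM was recomputed without the 5 libraries of low depth and moved by less than the spread between hexagons. Dropping 5 of 82 libraries can move a median by only a few ranks, so this says little about the effect of depth. The ranges given above include these libraries. Members with few counts, such as Hspa1a, could not be compared between positions at this depth.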
